A study of Homo sapiens with 6 samples.

Results

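The genes of the interleukin 6 (IL6) cytokine family, their receptors and the signalling proteins SOCS3 and STAT3 were examined in 786-O cells, a line of human clear cell kidney cancer cells, after knockdown of PLEKHO1. Of 10 listed genes, 9 had at least 1 probe set that the array's annotation assigns to a single gene, and their 35 probe sets were read among 44988 probe sets of 18132 genes. CLCF1, a cytokine of the family, was not analysed here. The first group of arrays held RNA of cells given a short hairpin RNA (shRNA) against PLEKHO1 by lentivirus (shPLEKHO1, n = 3), and the second held RNA of cells given a negative control shRNA in the same way (shNC, n = 3). Both groups were the same line in the same medium. The sources used here do not state the shRNA sequences, the time after infection or whether cells were cloned or pooled, so an effect of lower PLEKHO1 and another effect of the hairpin cannot be told apart.

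IL6, LIF, IL11 and CLCF1 are secreted cytokines that signal through the shared receptor chain gp130, the product of IL6ST. IL6 first binds IL6R, IL11 binds a receptor chain of its own, LIF brings gp130 together with LIFR, and oncostatin M pairs gp130 with OSMR or LIFR. JAK kinases bound to these chains then phosphorylate STAT3, a transcription factor that induces SOCS3, an inhibitor that binds gp130 and JAK kinases and ends the signal. Renal carcinoma cells are known to secrete IL6.

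The 6 arrays had median intensities between 55.7 and 57.1 on a linear scale, and log2 values of all probe sets correlated at 0.998 within groups and at 0.988 to 0.989 across them. PLEKHO1, read by 1 probe set, gave intensities of 110.3, 116 and 97.4 with shPLEKHO1, against 135, 143 and 126 with shNC. It was lower on all 3 shPLEKHO1 arrays than on any shNC array (log2 difference of -0.32 ± 0.08, limma adjusted p = 0.0124), and the mean intensity was 0.80 of that with shNC. Of 8 marker genes of renal carcinoma lines, 7 were measured, and 11 of their 23 probe sets rose and 8 fell. These shares of 47.8% and 34.8% compare with 17.3% and 15.7% of all probe sets. CDH6, PAX8 and PAX2 had falls only, KRT18, EPAS1 and KRT8 had rises only, and VIM had no call. The highest CDH6 mean was 306 with shPLEKHO1 and 597 with shNC, and that of KRT18 was 2173 and 1507. VIM had mean intensities of 15448 with shPLEKHO1 and 14741 with shNC, and the kidney transcription factor PAX8 had 354 and 424 by its brightest probe set. None of 15 leukocyte or 9 endothelial probe sets passed the test in limma (0 and 1 of them at an unadjusted p under 0.05). By the brightest probe set of each gene, the 5 leukocyte genes had means from 6.82 (PTPRC, the leukocyte antigen CD45) to 85.3 (CD79A) with shPLEKHO1 and from 6.39 to 88.4 with shNC. The 3 endothelial genes had means from 16.9 (CDH5) to 68.9 (VWF) with shPLEKHO1 and from 15.5 to 78.4 with shNC, so CD79A and VWF read above the array medians. The labels do not say whether replicates came from separate cultures, so errors and p-values cover only the spread among these arrays, and part of it may be technical.

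Most of the IL6 family was higher with shPLEKHO1. Log2 differences subtract the shNC mean from the shPLEKHO1 mean of log2(intensity + 1) and are given ± SE, with n = 3 arrays per group. "Rose" and "fell" mark an adjusted p under 0.05 in limma over all 44988 probe sets. The genes were selected on membership of this family with their log2 differences in this contrast already known, so for them these words and all differences are a description, and no p-value is given. Of 35 probe sets, 25 rose, 1 fell and 9 did not pass. Over all probe sets 33.0% passed, 17.3% as rises and 15.7% as falls, and nothing is read from the members' share, since the contrast chose them. The median log2 difference was 0.42 over the 35 probe sets and 0.01 over all probe sets. All 3 shPLEKHO1 values lay above all 3 shNC values in 25 of the 35 and below them in 2, whereas 43.0% of all probe sets had groups without overlap, 23.0% higher and 20.0% lower. By role, all 8 probe sets of cytokines rose, 12 of 22 of receptors rose and 1 fell, and both probe sets of SOCS3 and all 3 of STAT3 rose. Probe sets of 1 gene share their target and are not independent of each other.

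**Figure D1:**
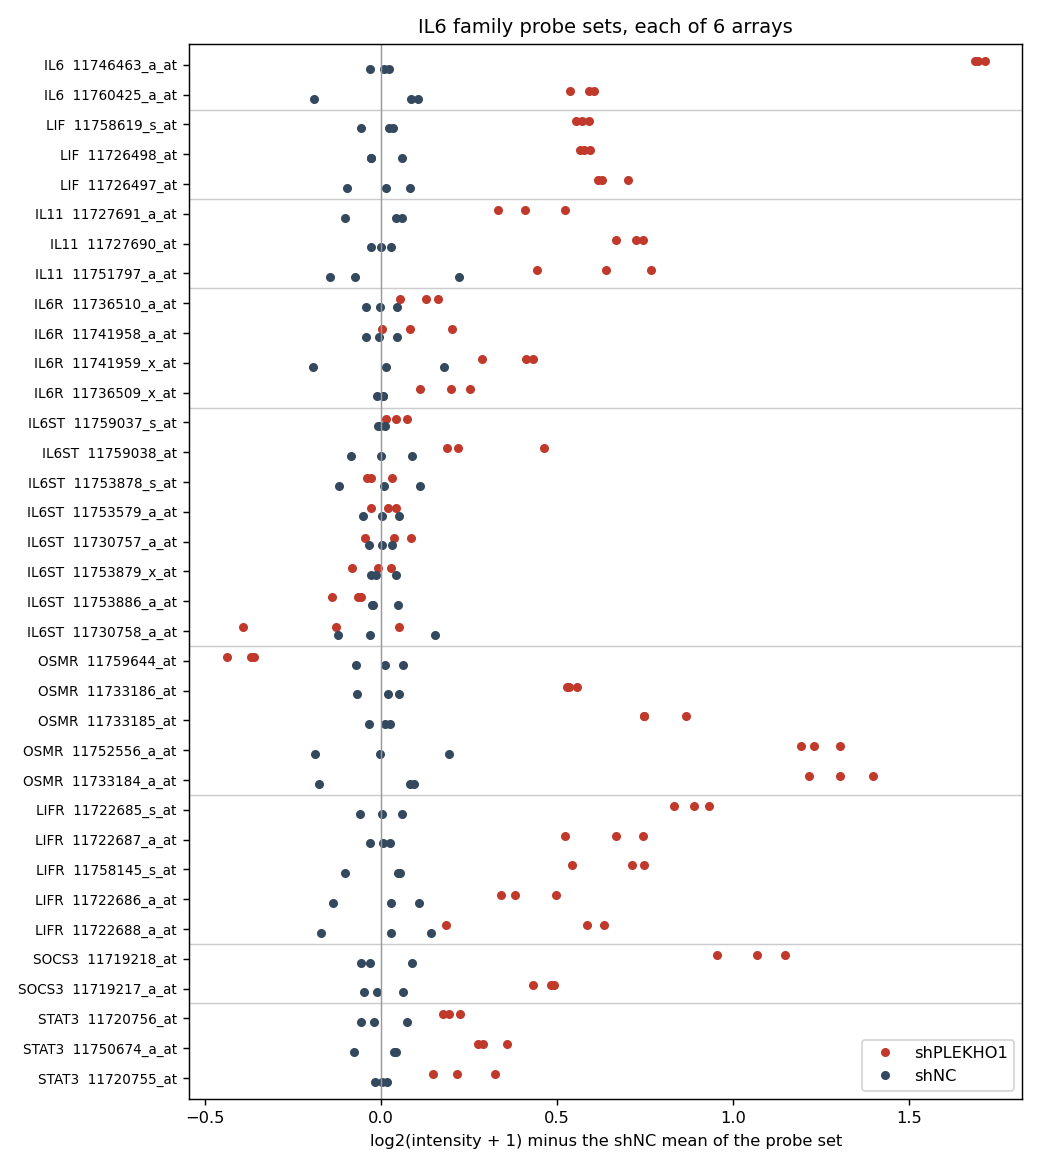
Each row is 1 of the 35 IL6 family probe sets, and each point is 1 array: log2(intensity + 1) minus the shNC mean of that probe set, with shPLEKHO1 points above shNC points. IL6, LIF, IL11, LIFR, SOCS3 and STAT3 sit right of 0 on all shPLEKHO1 arrays, most IL6ST rows overlap, and 1 of 5 OSMR rows lies left of 0.

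Promoter sequences are shown for 4 genes with rising probe sets whose window held a motif match, and for IL6ST, the shared chain, of which 1 of 8 probe sets rose. RefSeq gave sequences (build GRCh38.p14) for 8 of the genes, with 11 start sites, and the 250 bases before each start were searched on both strands. The motifs were the NF-kB consensus, TTCNNNGAA for STAT factors, TGANTCA for AP-1 and TTGCNNAA for C/EBP factors. Capitals mark the matches, and for LIFR the first of 3 listed starts is given.
IL6, chr7:22726950-22727199, plus strand: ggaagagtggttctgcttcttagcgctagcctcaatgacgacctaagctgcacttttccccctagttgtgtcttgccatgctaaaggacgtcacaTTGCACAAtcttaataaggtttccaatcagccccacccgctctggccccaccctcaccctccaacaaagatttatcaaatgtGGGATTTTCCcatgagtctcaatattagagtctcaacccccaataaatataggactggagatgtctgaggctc
IL11, chr19:55370464-55370713, minus strand: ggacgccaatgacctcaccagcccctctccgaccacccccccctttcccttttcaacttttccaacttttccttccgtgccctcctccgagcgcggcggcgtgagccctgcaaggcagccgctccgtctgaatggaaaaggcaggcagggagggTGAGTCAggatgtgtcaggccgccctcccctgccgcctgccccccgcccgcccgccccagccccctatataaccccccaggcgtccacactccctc
LIFR, chr5:38595406-38595655, minus strand: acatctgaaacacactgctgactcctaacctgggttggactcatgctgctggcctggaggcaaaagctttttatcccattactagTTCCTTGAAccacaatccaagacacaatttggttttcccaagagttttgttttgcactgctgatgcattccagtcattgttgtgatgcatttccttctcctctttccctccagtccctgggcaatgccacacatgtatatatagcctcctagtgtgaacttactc
OSMR, chr5:38845762-38846011, plus strand: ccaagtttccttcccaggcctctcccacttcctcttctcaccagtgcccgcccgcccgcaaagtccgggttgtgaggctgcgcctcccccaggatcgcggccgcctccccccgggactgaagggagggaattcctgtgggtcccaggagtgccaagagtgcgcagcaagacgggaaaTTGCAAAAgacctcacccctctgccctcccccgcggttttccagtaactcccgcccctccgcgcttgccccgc
IL6ST, chr5:55994964-55995213, minus strand: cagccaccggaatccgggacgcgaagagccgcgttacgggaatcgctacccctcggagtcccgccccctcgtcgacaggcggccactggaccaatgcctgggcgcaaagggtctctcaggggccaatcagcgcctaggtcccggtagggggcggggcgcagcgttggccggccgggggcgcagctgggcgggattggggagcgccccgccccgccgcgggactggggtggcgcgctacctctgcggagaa
The IL6 window held 1 NF-kB match, GGGATTTTCC, 73 to 64 bases before the start, and 1 C/EBP match, TTGCACAA, 155 to 148 bases before it. The IL11 window held the AP-1 match TGAGTCA, 96 to 90 bases before the start. The LIFR window held the STAT match TTCCTTGAA, a further LIFR start held TTCATCGAA, and OSMR held the C/EBP match TTGCAAAA. Of the 11 windows, 1 held an NF-kB match, 2 a STAT match, 1 an AP-1 match and 3 a C/EBP match. Both STAT matches were of LIFR, and the further LIFR start also held the C/EBP match TTGCAAAA. No window of SOCS3, STAT3, IL6R or IL6ST held a match of any of these motifs, nor did the last LIFR start. Among 35116 promoters of this length the shares with a match were 5.21%, 6.57%, 6.57% and 9.05% in the same order. No match overlapped another, and a match describes letters in this window only.

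Among the cytokines, IL6 had the largest difference. Its brighter probe set (11746463_a_at) read 1239.5, 1254 and 1254 with shPLEKHO1, against 405, 379.5 and 374 with shNC. Every shPLEKHO1 array was far above every shNC array, and the shPLEKHO1 arrays differed little among themselves. The mean intensity was 1249 ± 8.41 with shPLEKHO1 and 386 ± 16.6 with shNC (SD, n = 3 each), a log2 difference of 1.70 ± 0.05 (95% confidence interval from 1.59 to 1.81), or 3.24-fold. By log2 difference this probe set ranked 18 of 44988. The other IL6 probe set (11760425_a_at) read 84.4, 85.5 and 80.2 with shPLEKHO1, against 59.3, 49.1 and 59.5 with shNC. It rose as well, by 0.58 ± 0.08 (interval from 0.39 to 0.77), so the size of the IL6 difference depended on the probe set while its direction did not.

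LIF, named for inhibiting the differentiation of leukaemia cells and a ligand of LIFR, differed by nearly the same amount at each of its 3 probe sets. The brightest (11758619_s_at) read 969, 973 and 959.6 with shPLEKHO1, against 683, 605 and 645 with shNC. A second (11726498_at) read 212, 216 and 210.2 with shPLEKHO1, against 142, 139 and 149.9 with shNC, and the dimmest (11726497_at) read 49.4, 51.4 and 48.3, against 32.7, 29.8 and 31.7. The log2 differences were 0.57 ± 0.05, 0.58 ± 0.05 and 0.65 ± 0.06 in the same order, or 1.49-fold to 1.57-fold, and the groups did not overlap at any of them. IL11, which acts on fibroblasts, megakaryocytes and bone, rose at its 3 probe sets too. Its most even probe set (11727690_at) read 139.8, 150.5 and 147 with shPLEKHO1, against 89.0, 86.7 and 91.3 with shNC, a log2 difference of 0.71 ± 0.05. The other two differed by 0.42 ± 0.07 and 0.62 ± 0.11, and the last had the widest spread within groups of the 8 cytokine probe sets (0.18 on the log2 scale).

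Among the receptors, OSMR and LIFR, the chains that pair with gp130 for oncostatin M and LIF, moved at every probe set, whereas most of IL6ST did not. OSMR had the largest receptor differences. Probe set 11733184_a_at read 82.0, 88.1 and 76.1 with shPLEKHO1, against 34.0, 29.0 and 34.6 with shNC (1.30 ± 0.09, 2.47-fold). Probe set 11752556_a_at read 172, 193 and 177 with shPLEKHO1, against 87.5, 66.9 and 76.8 with shNC (1.24 ± 0.09, 2.36-fold). In both, the lowest shPLEKHO1 value was above the highest shNC value. Probe sets 11733185_at and 11733186_at rose by 0.79 ± 0.05 and 0.54 ± 0.05.

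The OSMR probe set with the highest mean, 11759644_at, went the other way. It read 315, 344 and 335 with shPLEKHO1, against 452, 404 and 450.1 with shNC, so every shPLEKHO1 array was below every shNC array. Its log2 difference was -0.39 ± 0.06 (95% confidence interval from -0.52 to -0.26), while the lowest bound among the intervals of the other 4 OSMR probe sets was 0.42. When each gene was read from its brightest probe set alone, 6 of the 9 genes rose, 1 fell and 2 did not pass, and OSMR was the one that fell. Among 18132 genes read in that way 18.1% rose and 16% fell. Which OSMR transcripts each probe set detects was not tested.

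**Figure D2:**
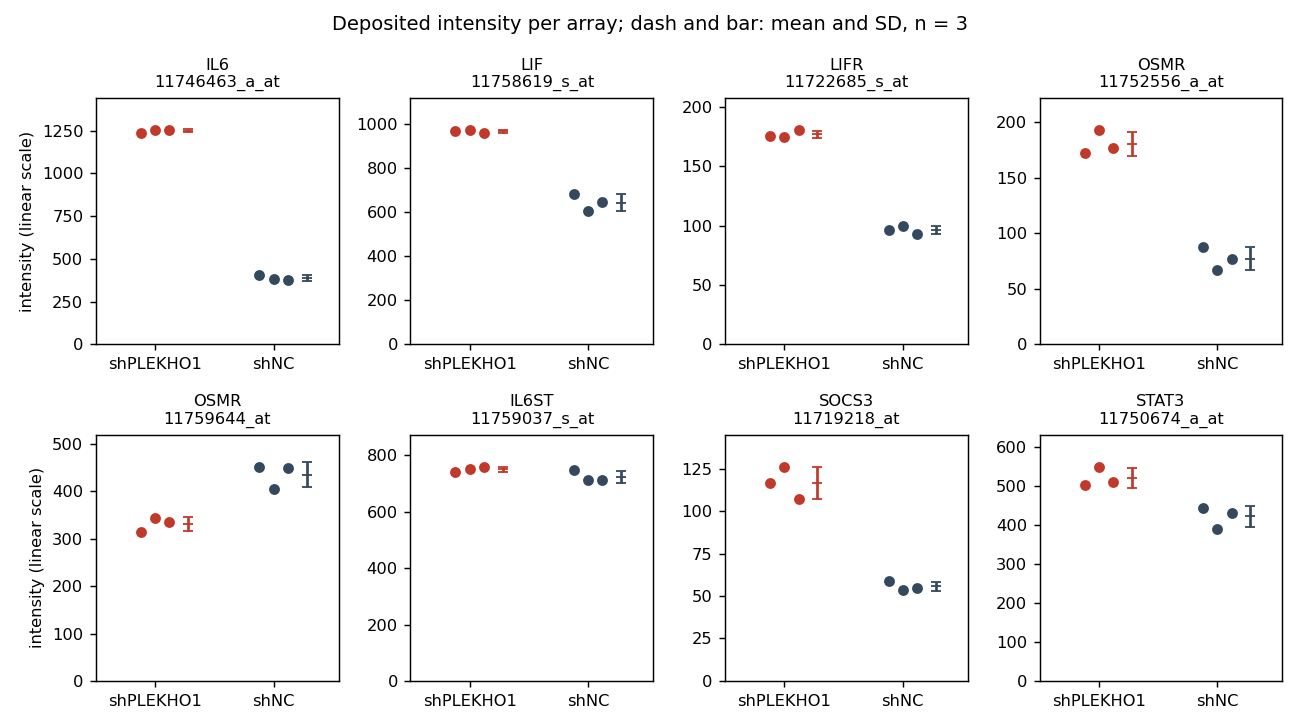
Deposited intensity on a linear axis from 0 for 8 probe sets of IL6, LIF, LIFR, OSMR (2 probe sets), IL6ST, SOCS3 and STAT3, with 1 point per array and the mean and SD (n = 3) beside them. IL6 lies near 1249 with shPLEKHO1 and 386 with shNC, the 2 OSMR panels differ in opposite directions, and the IL6ST points of the groups overlap.

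LIFR rose at all 5 of its probe sets. The brightest (11722685_s_at) read 176, 174 and 180.4 with shPLEKHO1, against 96.3, 99.2 and 92.8 with shNC. Its groups stood well apart, with a log2 difference of 0.88 ± 0.06, or 1.84-fold. The other 4 differed by 0.41 to 0.67, and the dimmest of them (11722688_a_at, 0.47 ± 0.13) read 19.4, 25.2 and 24.8 with shPLEKHO1, against 14.0, 18.3 and 16.6 with shNC. In that one the lowest shPLEKHO1 array was close to the highest shNC array. Its call was lost when shPLEKHO1 replicate 2 or 3, or shNC replicate 1 or 3, was left out (log2 difference from 0.27 to 0.61 over all alternatives).

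IL6ST, the shared gp130 chain, did not pass at 7 of 8 probe sets. The brightest (11759037_s_at) read 740.0, 751 and 759.8 with shPLEKHO1, against 747, 712 and 712 with shNC. The groups overlapped, and the difference of 0.04 ± 0.05 had a 95% confidence interval from -0.07 to 0.15. Probe set 11759038_at was the exception, with 221, 225 and 263 with shPLEKHO1, against 199, 181 and 207 with shNC (0.29 ± 0.08). Its highest value came from shPLEKHO1 replicate 3, and it did not pass without that array, nor without shNC replicate 1 or 2 (0.20 to 0.34 over the alternatives). The remaining 6 IL6ST probe sets differed by -0.16 to 0.03. One of them (11753886_a_at) had all shPLEKHO1 values below all shNC values, at -0.09 ± 0.05, and did not pass.

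IL6R, the chain that binds IL6 itself, was dim. Its 4 probe sets had means from 14.8 to 28.6 with shPLEKHO1 and from 12.7 to 26.2 with shNC. Array background probe sets with 16 to 18 G or C bases per probe had means from 13.9 to 31.6 with shPLEKHO1 and from 13.3 to 29.7 with shNC. These are means like those of IL6R. Means over all 23 background probe sets ran from 4.85 to 2200 with shPLEKHO1 and from 4.72 to 1926 with shNC. The G and C content of the IL6R probes was not used here, so their distance from background is not known. Probe set 11741959_x_at read 24.7, 23.9 and 21.8 with shPLEKHO1, against 19.7, 15.6 and 17.9 with shNC (0.38 ± 0.09), and 11736509_x_at read 15.4, 15.1 and 13.8, against 12.5, 12.9 and 12.8 (0.19 ± 0.05). Both rose, and the suffix x marks probe sets that may bind other transcripts. The first did not pass without shPLEKHO1 replicate 2 (0.35), and it was 0.22 with a pseudocount of 16. The second was 0.09 with that pseudocount and did not pass under 8 of 13 alternatives, among them those without shPLEKHO1 replicate 1 or 2 or without any 1 of the shNC replicates (0.16 to 0.19). The other two, 11736510_a_at and 11741958_a_at, overlapped between groups at 0.11 ± 0.05 and 0.10 ± 0.06. All 23 background probe sets had a higher mean with shPLEKHO1 than with shNC, by factors up to 1.14, without overlap in 7 of them. Those with 16 to 18 G or C bases per probe differed by factors of 1.04 to 1.06, and their groups overlapped. The part of background in the IL6R differences was not tested. Dim probe sets of other members share this limit. With shNC, OSMR 11733184_a_at had a mean of 32.6 and SOCS3 11719217_a_at one of 49.7. Background probe sets with 18 to 20 G or C bases per probe had shNC means from 29.7 to 55.3.

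SOCS3, the feedback inhibitor that STAT3 induces, rose at both probe sets. Probe set 11719218_at read 117, 126 and 107 with shPLEKHO1, against 58.6, 53.8 and 55.0 with shNC. All shPLEKHO1 values were far above the shNC values, and the log2 difference was 1.06 ± 0.07 (95% confidence interval from 0.90 to 1.21), or 2.08-fold. Probe set 11719217_a_at read 70.1, 67.4 and 68.9 with shPLEKHO1, against 48.3, 52.4 and 48.3 with shNC (0.47 ± 0.05, 1.38-fold). STAT3 itself differed less. Its probe set 11750674_a_at read 501, 548 and 509.7 with shPLEKHO1, against 444, 390.1 and 429 with shNC (0.31 ± 0.06, 1.24-fold). Probe set 11720755_at read 434, 432 and 473, against 393, 368 and 383 (0.23 ± 0.06), and 11720756_at read 497, 532 and 506, against 484, 419 and 437 (0.20 ± 0.05). In all 3 the groups were apart, but by little: for 11720756_at the lowest shPLEKHO1 value of 497 stood beside a highest shNC value of 484. That probe set did not pass in 7 of 15 alternatives, among them those without shPLEKHO1 replicate 2 or 3, without shNC replicate 2 or 3, and without normalization between arrays (0.17 to 0.24 over all of them). Likewise, 11720755_at did not pass without shPLEKHO1 replicate 3 (0.18) or without shNC replicate 2 (0.22). Arrays measure messenger RNA, so the phosphorylation that activates STAT3 was not measured.

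The genes whose pattern over the 6 arrays was most like that of the brighter IL6 probe set were sought among probe sets above the median intensity. Likeness was the root-mean-square difference between log2 values, each centred on its own shNC mean, with 1 probe set per gene. The nearest was GLIPR1 at 0.0459, with 414, 420.0 and 407 with shPLEKHO1, against 136, 120.4 and 129 with shNC. It was followed by TFRC, the transferrin receptor, at 0.0562, by PDLIM7, a cytoskeletal adaptor, at 0.057, by the scaffold protein HOMER2 at 0.0643 and by KYNU, an enzyme of tryptophan breakdown, at 0.0745. Each was higher on all shPLEKHO1 arrays, by 1.60 to 1.69 on the log2 scale. The arrays form 2 groups, so this likeness rests mainly on the size of the difference between them.

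Other genes of the pathway, listed by textbook function with earlier results of these data known, did not move as a block. The members were chosen with this contrast known, so nothing is read from how the lists differ from them. For the listed genes, which are not members, adjusted p-values are from limma over all probe sets. Where a list had calls, the genes with its smallest p are named, so their values do not stand for the list. None of 6 probe sets of other ligands of the family (CTF1, OSM, IL27, EBI3 and IL31) passed, and 0 had an unadjusted p under 0.05. OSM, the ligand of OSMR, read 52.8, 40.8 and 47.7 with shPLEKHO1, against 37.2, 47.1 and 43.9 with shNC by 1 of its probe sets (0.14 ± 0.10, adjusted p = 0.349), and CTF1 was at 0.11 ± 0.07 (adjusted p = 0.29). CNTF was not analysed here. Of 19 probe sets of other receptor chains and of the proteases ADAM10 and ADAM17, which cut IL6R from the cell surface, 3 fell and 0 rose. The falls were all of ADAM17, and their share of 15.8% was near the 15.7% of all probe sets. Without shPLEKHO1 replicate 1 or 3, 1 probe set of this list rose. The brightest ADAM17 probe set read 324, 323 and 339.6 with shPLEKHO1, against 523, 482 and 501 with shNC (-0.61 ± 0.05, adjusted p = 5.53e-05), while 4 probe sets of ADAM10, named after its values were seen, lay between -0.04 and -0.00.

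Of 24 probe sets of JAK kinases and other STAT factors, 5 rose and 3 fell (20.8% and 12.5%, against 17.3% and 15.7% of all probe sets). JAK1, the main kinase on gp130, fell at 2 of 3 probe sets; the one with the smaller p read 1194, 1337 and 1207 with shPLEKHO1, against 1577, 1524 and 1466 with shNC (-0.29 ± 0.06, adjusted p = 0.00443). JAK2 rose at 1 of 3 (0.40 ± 0.07, adjusted p = 0.00242). STAT5B rose at 3 of 4, with 66.6, 79.7 and 88.8 with shPLEKHO1, against 41.3, 38.9 and 46.8 with shNC at the strongest (0.87 ± 0.11, adjusted p = 0.000521). Of 40 probe sets of other inhibitors, 5 rose and 7 fell (12.5% and 17.5%, near the 17.3% and 15.7% of all probe sets), and without shNC replicate 3 the falls were 4. SOCS2 fell at both probe sets, reading 61.2, 64.2 and 74.7 with shPLEKHO1, against 105, 113 and 115 with shNC (-0.73 ± 0.08, adjusted p = 0.000265). SOCS5 fell at 3 of 4, and its probe sets ranged from -0.74 to -0.07. The most changed was at -0.74 ± 0.07 (adjusted p = 0.000127). PIAS2, which belongs to the protein inhibitors of activated STAT, rose at 3 of 4, and its probe sets ranged from 0.16 to 0.46. The most changed was at 0.46 ± 0.05 (adjusted p = 0.000236). SOCS1 had 2 probe sets, and neither passed, at -0.17 and 0.03, a gene singled out after its values were seen.

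**Figure D3:**
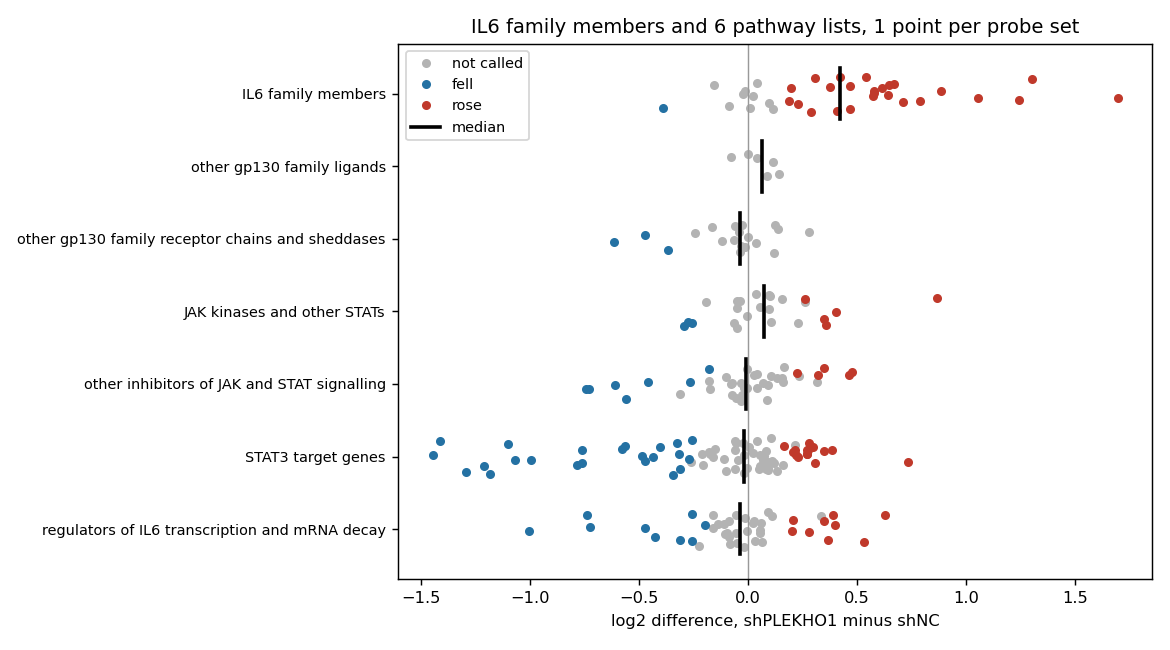
Log2 differences of the 35 IL6 family probe sets and of 6 lists of other pathway genes, 1 point per probe set, red where it rose, blue where it fell and grey where it did not pass, with a black bar at each median. The members, which were chosen with this contrast known, have a median of 0.42, and the 6 lists have medians between -0.04 and 0.08.

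Known target genes of STAT3 other than SOCS3 were read from 78 probe sets of 21 genes. Of these, 15 rose and 23 fell (19.2% and 29.5%, against 17.3% and 15.7% of all probe sets), with a median of -0.02 against 0.01 over all probe sets. CCND1, the G1 cyclin, fell at all 4 probe sets, and the brightest read 992, 1034 and 969.8 with shPLEKHO1, against 2733, 2608 and 2633 with shNC (-1.41 ± 0.05, adjusted p = 1.05e-06). PIM1, a survival kinase, fell at all 4 as well, by log2 differences from -1.21 to -0.79. The one with the smallest p read 52.5, 52.7 and 51.2 with shPLEKHO1, against 110.0, 112 and 111 with shNC (-1.07 ± 0.05, adjusted p = 2.47e-06). BIRC5, the apoptosis inhibitor survivin, fell at 8 of 12, by up to 1.10 ± 0.05 (adjusted p = 3.57e-06). For each of these 3 probe sets, no shPLEKHO1 value reached the lowest shNC value. By gene, 6 had a probe set that rose and none that fell (JUNB, CEBPD, MYC, BCL6, VEGFA and FOS), 5 had one that fell and none that rose (CCND1, PIM1, BIRC5, NNMT and BCL2L1), MCL1 had both, and 9 had neither. VEGFA rose at 4 of 10 probe sets, BCL6 at 2 of 5 and FOS at 1 of 4, and BCL2L1 fell at 2 of 3. The genes had from 1 to 12 probe sets, so their chances of a call differed, and the share over all genes was not counted. Among those named after their values were seen, JUNB was at 0.73 and all 5 probe sets of CEBPD lay between 0.27 and 0.35. Liver acute phase genes of the list (CRP, FGB, FGG, HP, LBP and SERPINA3) had highest means from 6.60 to 17.6 with shPLEKHO1 and from 6.26 to 17.5 with shNC. These lie in or below the range of the background probe sets with 16 to 18 G or C bases per probe. The G and C content of these genes' probes was not used, so whether they read above background is not known. Their lack of calls is not read as a lack of change.

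**Figure D4:**
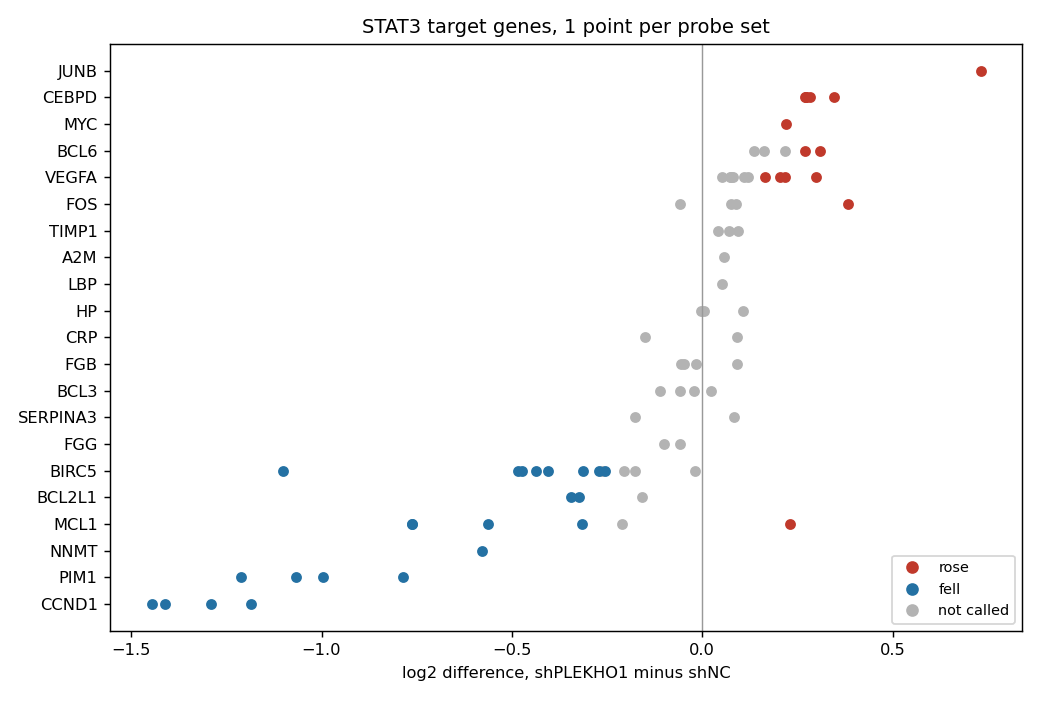
Log2 differences of the 78 probe sets of 21 STAT3 target genes, 1 row per gene ordered by its median, red where a probe set rose, blue where it fell and grey where it did not pass. CCND1 and PIM1 lie at or left of -0.79 at all probe sets, JUNB is at 0.73, and MCL1 has points on both sides of 0.

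Factors that act on IL6 transcription and on the decay of its messenger RNA were read from 44 probe sets of 13 genes. Of these, 9 rose and 9 fell (20.5% each, against 17.3% and 15.7% of all probe sets), and the falls were 14 under robust variances with a trend. Among activators of the IL6 promoter, JUN rose at 3 of 4 probe sets, which ranged from 0.07 to 0.53. The most changed read 899, 890.5 and 874 with shPLEKHO1, against 605, 615 and 612 with shNC (0.53 ± 0.05, adjusted p = 0.000119). RELA, NFKB1, NFKBIZ and CEBPB, named here after their values were seen, had no probe set that passed. CREB1, named in the same way, rose at 1 of 7 probe sets and fell at 1. Among RNA-binding proteins that act on the stability of such messages, RC3H1 (Roquin) rose at 2 of 3 probe sets, which ranged from 0.21 to 0.63. The most changed read 287, 302 and 292 with shPLEKHO1, against 189.7, 189 and 196 with shNC (0.63 ± 0.05, adjusted p = 3.18e-05). HNRNPD, also called AUF1, fell at 3 of 8. Its most changed probe set read 119, 118 and 132 with shPLEKHO1, against 251, 250.4 and 244 with shNC (a ratio of 0.499, adjusted p = 1.26e-05), whereas its other 5 probe sets lay between -0.11 and -0.05 and did not pass. The remaining genes of the list were named after their values were seen. ZC3H12A (0.40) and ZFP36 (0.28) rose at 1 of 1 probe set each, and ARID5A at 1 of 3. ZFP36L1 fell at 3 of 6 and ELAVL1 at 2 of 5.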

How the data were processed

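RNA of 3 shPLEKHO1 and 3 shNC samples was hybridised to 6 single-colour Affymetrix arrays. The authors deposited 1 intensity per probe set and array, on a linear scale, and the submitters' processing notes name Affymetrix Expression Console. The sources used here do not state its version, its algorithm or whether arrays were normalized against each other. Values ran from 4.33 to 19770. Of 49395 probe sets, 102 controls, 1832 with several symbols and 2473 with none were left out, which left 44988. Symbols were updated by Entrez identifier (44961 matched, 27 kept the array's name).

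The deposited values were taken as log2(intensity + 1) and quantile normalized over all probe sets, which understates the folds of dim genes. Each probe set was tested on its own by a linear model with moderated variances (limma 3.58.1, R 4.3.3) and no covariates. P-values were adjusted by the Benjamini-Hochberg method over 44988 probe sets, with 4 residual and 4.06 prior degrees of freedom and a threshold of 0.05. The limma fit was tested on values simulated on the log2 scale, which did not cover the log2 transform or the quantile normalization. The members and lists were chosen with earlier results of these data known. Besides the members and PLEKHO1, the text names from each list up to 3 genes with the smallest p among those that passed, or its first 2 measured genes, and the 5 genes most like IL6. Marker genes are named from their lists. ADAM10, SOCS1, RELA, NFKB1, NFKBIZ, CEBPB and CREB1 were named after their values were seen. So were ZC3H12A, ZFP36, ARID5A, ZFP36L1, ELAVL1 and the STAT3 targets other than CCND1, PIM1 and BIRC5. Samples with the same replicate number did not deviate together (correlations of -0.15, -0.15 and -0.04), so the number was used as a block only as an alternative. The other alternatives were no normalization between arrays, median centring, pseudocounts of 0 and 16, leaving out the dimmest 30% of probe sets, weights per array, robust variances with a trend, 1 probe set per gene, and leaving out each array. The number of arrays limits the precision.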

Additional observations from a re-analysis of the deposited data

How the results depend on the processing

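Of the 35 IL6 family probe sets, 29 kept their side of the threshold under every alternative in which they were measured, 19 of the 25 that rose among them, and none of the called ones changed sign. The other 6, of IL6R (2), IL6ST, LIFR and STAT3 (2), are given with their exceptions beside their values. The number of members past the threshold, 26, ranged from 22 to 26 over 14 alternatives and from 22 to 25 when 1 array was left out. Over all probe sets, 14858 passed, in a range from 12579 to 16195. With the replicate number as a block (replicate block), 24 member probe sets and 12937 of all probe sets passed; the numbers give no sign of pairing the samples. For the 6 other lists, the totals past the threshold stayed within 1.5 times of those reported. By direction, the falls among other inhibitors were 4 in place of 7 without shNC replicate 3, and those among regulators of IL6 were 14 in place of 9 under robust variances with a trend. Among other receptor chains and proteases, 1 probe set rose in place of 0 with the replicate block and without shPLEKHO1 replicate 1 or 3. A pseudocount of 16 gave smaller differences, among them 1.66 for IL6 and 0.89 for SOCS3 at their brightest probe sets. PLEKHO1 lay between -0.37 and -0.25, with a highest adjusted p of 0.0444. Dim probe sets such as those of IL6R read in the range of some array background probe sets, which limits what their differences can show.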
